A study of Mus musculus with 63 samples.

Results

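The heat shock proteins and their DNAJ partners were followed in RNA-seq of ovaries and pituitaries of female mice. Members were taken by gene name: every gene whose symbol begins with Hsp90a, Hsp90b, Hspa, Hspb, Hspd, Hspe, Hsph, Dnaja, Dnajb or Dnajc, followed by a digit or the letter a, except numbered pseudogenes. This gave 74 of the 34745 genes in each tissue's table: 2 HSP90 genes, 13 HSP70 genes (Hspa), 1 HSP110 gene (Hsph1), the 2 chaperonin genes Hspd1 and Hspe1, 9 small heat shock genes (Hspb, with Hspb11 and Hspbap1 counted here by name alone), 5 Dnaja, 13 Dnajb and 29 Dnajc genes. Hsp90ab1, the constitutive cytosolic HSP90, lies outside this name pattern and is mentioned only beside its relatives.

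All animals were C57BL/6 females, with no genotype or agent given in the labels. The treated arm received chronic unpredictable mild stress (CUMS), in which mild stressors of different kinds follow one another without a fixed pattern, and the other arm served as control. Ages of 2 and 6 months and durations of 8 and 12 weeks made 4 sets, written here as 2M-8W and 2M-12W for the younger mice, and as 6M-8W and 6M-12W for the older. Each set had 4 control and 4 CUMS libraries in each tissue, and only the 6M-12W control ovaries numbered 3. The question in the series title is how the responses of younger and adult mice compare. The labels do not say whether ovary 1 and pituitary 1 of a group came from 1 mouse, nor do they give the estrous stage or the hour of collection.

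Heat shock proteins are chaperones, which hold unfolded proteins, help them fold or hand them on for breakdown. HSP70s do this in cycles of ATP hydrolysis that DNAJ (HSP40) proteins start and that HSP110 resets, HSP90s finish clients such as steroid receptors, and small heat shock proteins keep aggregates soluble. The transcription factor HSF1 raises the cytosolic set within minutes of heat or protein damage, whereas the endoplasmic reticulum (ER) and the mitochondrion each have their own set. In steroid-making and hormone-secreting tissues the ER and mitochondrial sets are abundant in resting cells.

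Libraries held 12536371 to 28777668 counts in ovary and 13514270 to 24924584 in pituitary. The tissues matched their labels. Granulosa markers summed to 1589 to 5397 CPM (counts scaled to a common library size) in every ovary and oocyte markers to 111 to 472, and prolactin stood at or above 100400 CPM in every pituitary. Traces of pituitary transcripts were present in ovaries, up to 915 CPM of prolactin in 2M-12W control ovary 1. In bulk tissue, fewer cells of a type and less RNA per cell cannot be told apart.

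Levels are given as mean FPKM (fragments scaled by library total and by 1 length per gene). On this scale the most abundant members were those of the organelles and the constitutive HSP70. The length is not always that of a transcript. For Hspa8 it is 9084 bases, though the gene spans only 40800984 to 40805200 of chromosome 9. Ranks by FPKM depend on it. By CPM, ovary Hspa8 (1231) and Hsp90b1 (1066) stood above Hspd1 (596), with Dnajc15 at 99.8, and pituitary Hspa8 (967) stood above Hsp90b1 (894.5). In the ovary Hspd1, the mitochondrial HSP60, led with 214 FPKM, before Hsp90b1 (GRP94, the HSP90 of the ER) with 197, Dnajc15, a mitochondrial J protein, with 154, Hspa8 (HSC70) with 135 and Hspa5 (BiP) with 102. In the pituitary Hsp90b1 led with 165 FPKM, before Dnajb9 (ERdj4, a BiP partner in the ER) with 133, Hspa5 and Hspa8 with 106 each and Hspd1 with 65.3. Next to these in their families stood Hsp90aa1 (47.3 FPKM in ovary, 41.7 in pituitary) and Hspe1, the HSP60 partner (92.7 and 29.3). The cytosolic Hsp90ab1, left out by the name pattern, stood above every member, at 362.5 FPKM in ovary and 216.1 in pituitary. Dnaja2 led the Dnaja genes in FPKM (58.0 and 46.6), and Hspb1 (20.5 and 14.6) and Hspb8 (14.9 and 10.5) led the Hspb genes. Hsph1 stood at 10.7 and 16.1. By CPM, ovary Dnaja1 (164.7) and Dnaja2 (164.6) were level, their lengths being 13806 and 2839 bases. Pituitary Dnajb9 stood at 249 CPM, below Hspa5 at 738. The tables were normalized apart and the tissues were not tested against each other. On these means Dnajc15 stood at 23.6 FPKM in pituitary and Dnajb9 at 33.9 in ovary, each far below its level in the other tissue. Dnajc6 (auxilin, which uncoats clathrin vesicles, 0.360 and 8.20 FPKM), Dnajb13 (a part of motile cilia, 3.95 and 0.0729) and Hspb7, a small heat shock gene of muscle (1.49 and 0.0671), differed by more than those 2.

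**Figure D1:**
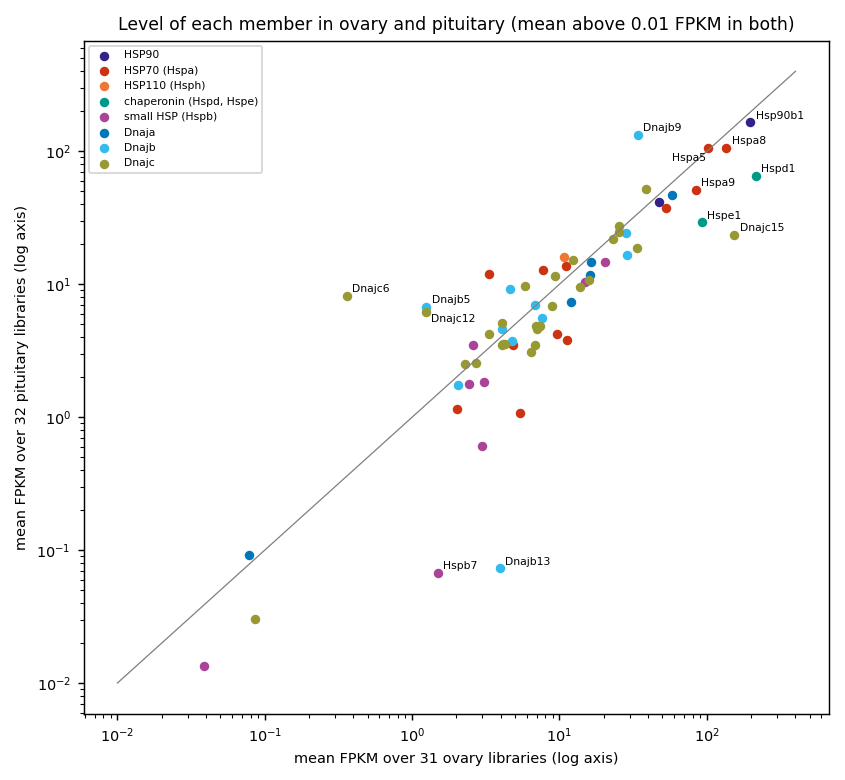
Mean FPKM of each member in ovary (horizontal log axis) and pituitary (vertical log axis), coloured by family, with the line of equal level. Most members lie near the line; Dnajc15, Dnajb13 and Hspb7 lie on the ovary side and Dnajb9 and Dnajc6 on the pituitary side.

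Low counts left out 8 members in ovary and 10 in pituitary. Dnaja1-ps, Dnajb7, Dnajb8, Dnajc22, Dnajc5b, Dnajc5g, Hspb3 and Hspb9 were below the filter in both tissues, and Dnajb13 and Hspb7 also in pituitary, so 66 and 64 members were tested. Dnajb8, a testis gene, is listed at 0 in every library.

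Few members passed the test in single sets, and more did in the mean of the 4 ovary sets. A member counts as passed when its adjusted p, over all genes tested in the tissue, is under 0.05. In ovary 2 of 66 passed in 2M-8W (6.26% of all genes did) and 5 in 2M-12W (6.74%). At 6 months, 6 passed after 8 weeks (6M-8W, 1.12%) and 3 after 12 weeks (6M-12W, 11.4%). Taking the 4 sets together, each against its own controls, 15 passed, 11 higher and 4 lower (20.3% of all genes). In pituitary 4 of 64 passed in 6M-8W (4.70%) and 3 in the mean of the 4 sets (6.44%). With edgeR no pituitary member passed in 2M-8W (0.424%; 4 had an unadjusted p under 0.05 and DESeq2 called 0), in 2M-12W (0.582%; 4, and DESeq2 called 1, Hspb8) or in 6M-12W (0.276%; 2, and DESeq2 called 0). In the 6M-8W ovary 9.09% of members passed against 1.12% of all genes. The calls of Hspa1a, Hspa1b and Hsp90aa1 there rested on few libraries, as given below. The fold of Hspd1 did not, but each of the 6 calls was lost under most alternative fits. In the ovary mean the share of members, 22.73%, was near that of all genes. The median log2 fold of the members was 0.06 in the 6M-8W ovary, against -0.01 over all genes, and 0.12 against 0.01 in the 6M-8W pituitary, where 44 of 64 members lay above 0.

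**Figure D2:**
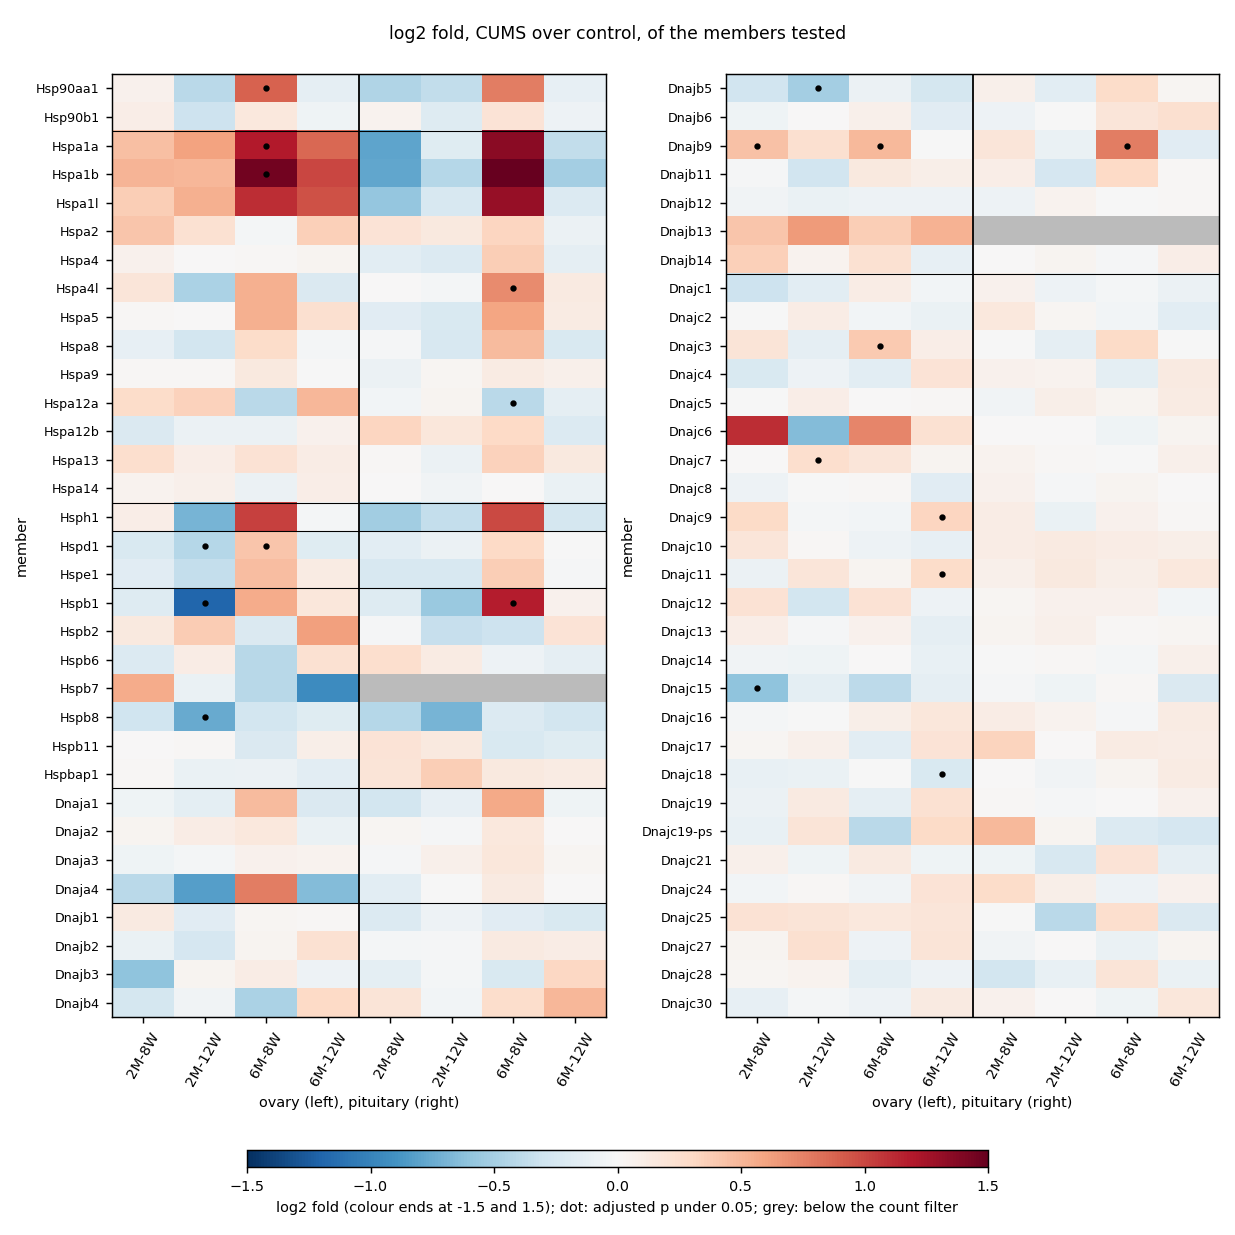
Colour map of the log2 fold, CUMS over control, of each member tested (vertical, ordered by family) in the 4 sets of ovary and of pituitary (horizontal). Dots mark an adjusted p under 0.05 and grey the members below the filter. Red in the 6M-8W column of both tissues runs through Hspa1a, Hspa1b, Hspa1l, Hsph1 and Hsp90aa1; Hspb8 is blue in all 8 columns.

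Hspa1a and Hspa1b encode the heat-inducible HSP70, the textbook target of HSF1. They lie side by side on chromosome 17 of GRCm38, Hspa1b at 34956436 to 34959238 and Hspa1a at 34969190 to 34972156, both on the minus strand, and the testis-type Hspa1l begins at 34972703 on the plus strand. Of the 50-base stretches in the Hspa1a transcripts 58.8% also occur in Hspa1b and 8.0% in Hspa1l, so reads could be split among them and their values are not independent. Hspa1a also overlaps Gm20481 and Hspa1l overlaps Gm10501 on the opposite strand, and whether the counting used strand is not given in the sources used here. The 250 bases before the 2 start sites match at 247 positions (98.8%). The stretch of each that holds a 2-unit heat shock element, the inverted repeat GAANNTTC that HSF1 binds, is shown because it is the same in both, on the minus strand and with the element in capitals (RefSeq start sites, GRCm38.p6).
Hspa1a, chr17:34972233-34972280: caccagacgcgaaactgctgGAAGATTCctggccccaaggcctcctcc
Hspa1b, chr17:34959315-34959362: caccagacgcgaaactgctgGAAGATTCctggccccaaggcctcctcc

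In the ovary the inducible HSP70 transcripts were higher after stress as the mean of the 4 sets. Hspa1a rose by 0.78 ± 0.14 (log2 fold ± SE, adjusted p = 0.000461) and exceeded its own control mean in 15 of 16 stressed ovaries. Hspa1b rose by 0.86 ± 0.18 (adjusted p = 0.0014, 15 of 16) and Hspa1l by 0.74 ± 0.18 (adjusted p = 0.00392, 13 of 16). Each of these 3 passed under all 37 alternatives, among them the fit without the 2 libraries described next (Hspa1a 0.55, Hspa1b 0.53, Hspa1l 0.45).

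Set by set, Hspa1a was at 15.2, 17.3, 14.1 and 19.05 CPM in the 6M-12W stressed ovaries and at 7.56, 8.18 and 11.4 in their controls. In 2M-8W it was at 17.3, 21.3, 12.2 and 17.7 CPM against 8.79, 12.4, 14.96 and 13.9. In 2M-12W it was at 11.3, 11.7, 14.5 and 20.2 CPM against 11.3, 8.94, 7.07 and 10.6. The groups did not overlap in 6M-12W and did in the other 2, and none of the 3 passed alone (adjusted p = 0.068, 0.337 and 0.2). Other measures moved with stress in the same ovaries. The mean log2(CPM + 0.5) of 20 immediate early genes was 4.24 to 4.39 in stressed and 4.96 to 5.76 in control 6M-12W ovaries. A clock measure (the mean of Nr1d1, Nr1d2, Per2, Per3, Bhlhe41, Ciart, Tef and Dbp minus that of Arntl and Npas2, on the same scale) was 3.15 to 3.35 against 2.36 to 3.02 there, and stressed and control libraries did not overlap on it in any set of either tissue. Their part in the Hspa1a values was not tested.

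In the 6M-8W set the inducible transcripts were high in stressed libraries 3 and 4 of both tissues and at or near control levels in 1 and 2. Ovary Hspa1a was at 10.7, 13.04, 36.2 and 31.8 CPM in stressed libraries 1 to 4 and at 10.1, 11.2, 9.02 and 9.91 in controls (log2 fold 1.19 ± 0.28, adjusted p = 0.0442). Ovary Hspa1b was at 23.4, 22.97, 106 and 87.98 CPM against 19.9, 29.1, 18.6 and 20.4 (1.45 ± 0.36, adjusted p = 0.0454). Libraries 1 and 2 lay within the controls for Hspa1b, and for Hspa1a library 1 did and library 2 lay just above them. Hsp90aa1, the inducible cytosolic HSP90, was at 231, 326, 575 and 643 CPM against 248, 269, 201 and 244 (0.88 ± 0.22, adjusted p = 0.0454), with library 1 among the controls and library 2 above all 4. Hsph1, the HSP110 nucleotide exchange factor, was at 104, 116, 327 and 327 CPM against 126, 107, 74.7 and 121 and missed the threshold (1.03 ± 0.27, adjusted p = 0.0549). Its 2 high libraries stood above every other ovary. Of 14 alternatives, the call held in 5 for Hspa1a and in 4 each for Hspa1b and Hsp90aa1.

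**Figure D3:**
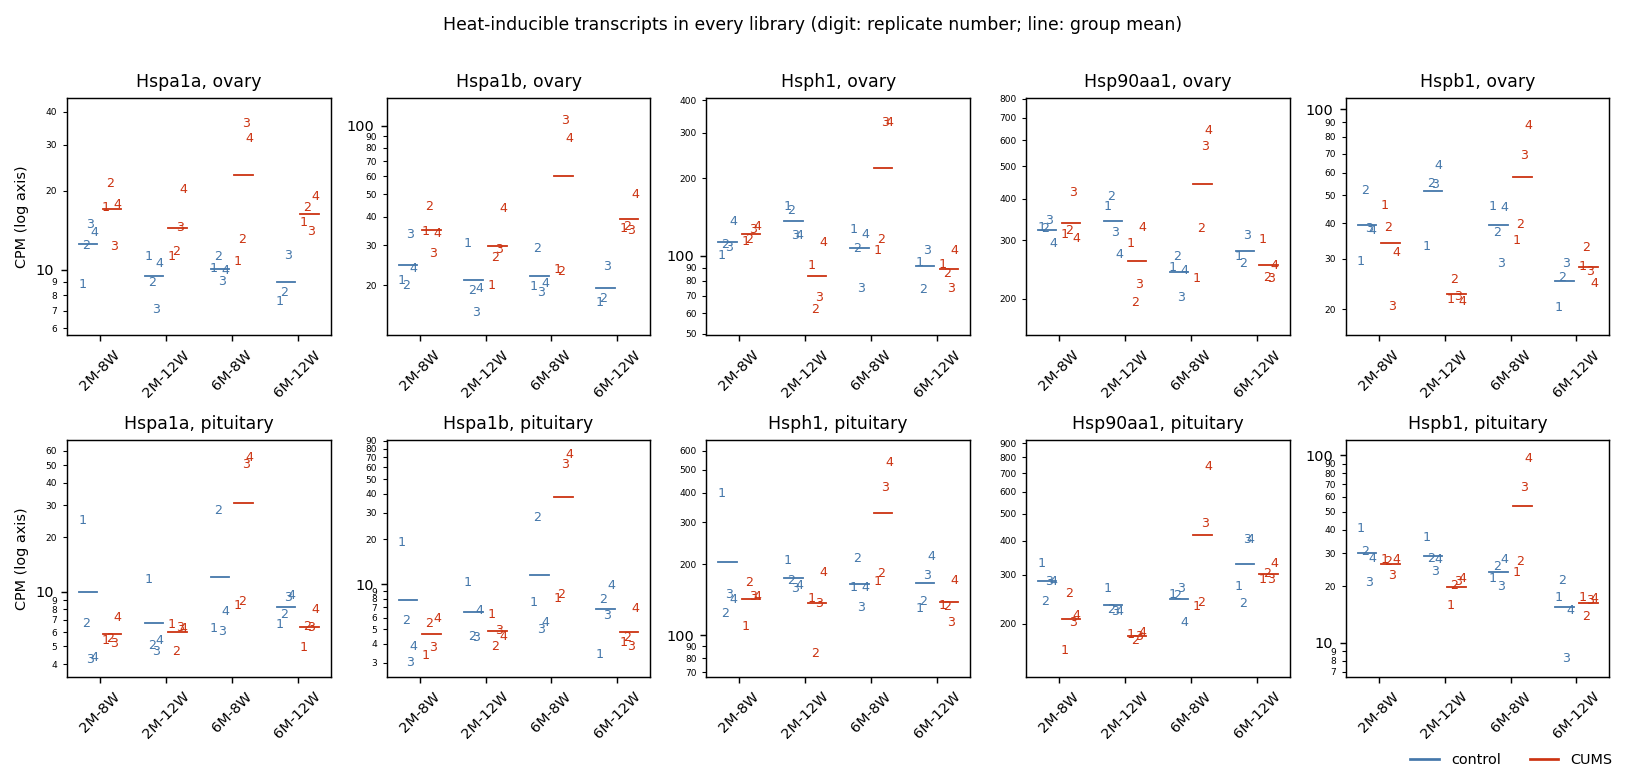
CPM (log axis) of 5 heat-inducible members in every library of ovary (upper panels) and pituitary (lower panels), by set, controls in blue and CUMS in red. Each digit is the replicate number of 1 library and each line a group mean; digits 3 and 4 in red stand above the rest in the 6M-8W set for Hspa1a, Hspa1b, Hsph1 and Hsp90aa1 in both tissues.

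Other inducible members were high in the same ovary libraries without passing edgeR's test; DESeq2 called Dnaja1 among them, and Hsph1. Dnaja1, a cytosolic HSP40, was at 178, 158, 278 and 273 CPM in stressed ovaries 1 to 4 and at 149, 167, 160.4 and 163 in controls (adjusted p = 0.087). Hspb1 (HSP25) was at 34.9, 39.5, 69.1 and 87.6 against 45.6, 37.2, 28.95 and 45.4 (adjusted p = 0.282). Hspa4l, an HSP110-type relative, was at 47.3, 43.1, 80.3 and 92.7 against 48.1, 44.4, 39.5 and 49.7 (adjusted p = 0.127). In each of the 3, libraries 3 and 4 exceeded all 4 controls. Hspa8, made without stress, was at 1138, 1201, 1782 and 1780.0 CPM against 1291, 1252, 1027 and 1288, again highest in 3 and 4. Dnajb1, the major inducible HSP40, overlapped its controls, with 52.4, 59.3, 75.96 and 65.8 CPM against 58.8, 70.3, 57.2 and 61.6 (0.03 ± 0.12) and so did Dnajb4, a relative in the same class (37.00, 39.2, 41.7 and 41.3 against 64.3, 29.2, 66.9 and 60.8). Hspb8, the small heat shock protein that works with BAG3, was at 36.6, 36.6, 39.9 and 43.99 against 49.4, 48.8, 37.7 and 53.6.

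The 6M-8W pituitaries showed the same 2 numbers. Hspb1 was at 23.8, 27.1, 67.4 and 96.4 CPM in stressed libraries 1 to 4 and at 22.1, 25.6, 19.9 and 27.7 in controls (1.18 ± 0.29, adjusted p = 0.015). Hspa4l was at 163, 190.1, 278 and 308 CPM against 167, 147, 111 and 149.7 (0.71 ± 0.17, adjusted p = 0.0109). Both passed, and in both libraries 3 and 4 held the highest values. Hspa1a, at 8.37, 8.81, 50.5 and 55.1 CPM against 6.26, 28.2, 6.03 and 7.81, and Hspa1b, at 8.04, 8.49, 63.2 and 73.3 against 7.54, 28.01, 5.01 and 5.54, had larger folds (1.35 ± 0.54 and 1.74 ± 0.59) but did not pass (adjusted p = 0.167 and 0.0932). Control library 2 was high for both. Hsph1 was at 169, 183, 421 and 535 CPM against 159, 212, 131 and 159 (adjusted p = 0.0765) and Hsp90aa1 at 231, 238, 459.6 and 742 against 256, 253, 267 and 202 (adjusted p = 0.0507, though called by DESeq2). Hspa8 was at 959, 1089, 1451 and 1464 CPM against 854, 965, 919.9 and 839.9 and Dnaja1 at 93.2, 109.5, 171 and 188 against 95.99, 106, 88.8 and 87.6, both highest in libraries 3 and 4. As in the ovary, the groups overlapped for Dnajb1, at 41.8, 52.3, 65.1 and 55.7 CPM against 52.3, 93.7, 49.05 and 47.6.

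Without stressed libraries 3 and 4, which were picked once the data had been seen, edgeR called 0 members in the 6M-8W ovary (10 had an unadjusted p under 0.05) and 0 in the 6M-8W pituitary (4 did); DESeq2 was not run without them. With 2 stressed libraries left in that set the fit relies on the spread of all 8 groups. The ovary folds were then 0.25 ± 0.24 for Hspa1a, 0.08 ± 0.28 for Hspa1b and 0.22 ± 0.19 for Hsp90aa1. The pituitary folds were -0.50 ± 0.56, -0.48 ± 0.60 and -0.07 ± 0.17 for the same genes, opposite in sign to those with all 4 libraries. Within the stressed group the clock measure did not set libraries 3 and 4 apart, at 2.01 and 2.21 in ovary against 2.10 and 1.94 in libraries 1 and 2, and at 3.54 and 3.39 against 3.59 and 3.25 in pituitary. Their total counts and the share of mitochondrial reads, 5.16% and 4.78% in ovary and 2.94% and 2.89% in pituitary, lay within the range of the other libraries. Within 6M-8W, however, stressed pituitaries 3 and 4 held the most counts, 20418929 and 22190587 against 15082012 to 17568812. The mitochondrial share was higher in stressed ovaries 1 and 2, at 6.59% and 5.26%. The immediate early mean was 4.98 and 5.39 in stressed pituitaries 3 and 4 and 4.87 and 4.32 in 1 and 2. In ovary it was 5.1 and 4.56 in 3 and 4 and 4.76 and 4.9 in 1 and 2. The part of these measures was not tested. Some marker sums also separated libraries 3 and 4 from 1 and 2. Theca markers summed to 2595 and 3173 CPM in stressed ovaries 1 and 2 and to 927.5 and 1096 in 3 and 4, with controls at 823 to 1118. Posterior pituitary glia markers summed to 73.6 and 50.5 CPM in stressed pituitaries 1 and 2 and to 34.2 and 40.4 in 3 and 4, with controls at 34.4 to 44.1. In these 2 cases libraries 3 and 4 were at or near control levels, and in others they lay outside the controls. Pituitary endothelium markers summed to 188 and 158 CPM in 1 and 2 and to 146 and 140 in 3 and 4 (controls 154.6 to 164.2). Pituitary ciliated-cell markers summed to 160 and 166, then 171 and 193 (controls 140.5 to 163.9). Ovary macrophage markers summed to 475 and 471, then 402.5 and 416, all below the controls (499.6 to 734.9). Ovary endothelium markers summed to 409 and 429, then 359 and 289 (controls 309 to 353). Luteal markers summed to 2296 and 2592, then 2269 and 1912 (controls 681 to 1080). The part of these markers was not tested. Control libraries could be high as well. In 2M-8W control pituitary 1, Hsph1 stood at 398 CPM against 124 to 149 in the other 3, and Hspa1a at 24.6 against 4.25 to 6.70. Without it and 6M-8W control pituitary 2, chosen after seeing the data, 8 members passed in the 6M-8W pituitary, among them Hspa1b (2.66 ± 0.56, adjusted p = 0.0045) and Hspa1a (2.20 ± 0.46, adjusted p = 0.00506).

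**Figure D4:**
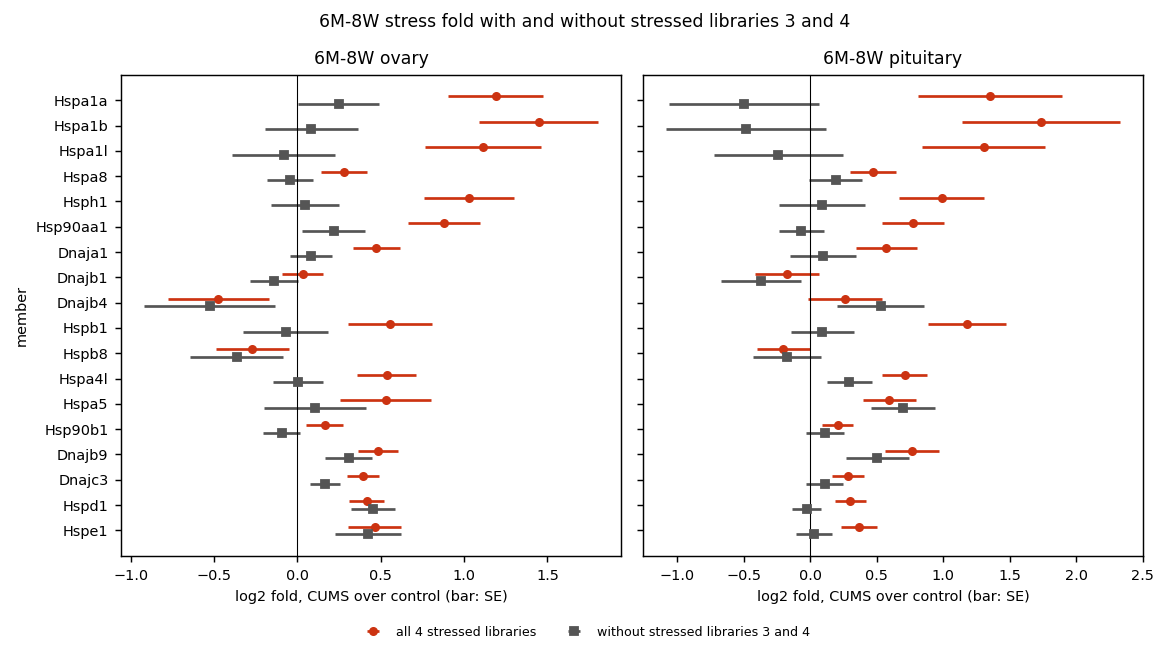
Log2 fold of CUMS over control in the 6M-8W ovary (left) and pituitary (right) for 18 members, with all 4 stressed libraries (red) and without stressed libraries 3 and 4 (grey squares), bars showing 1 SE. Hspa1a, Hspa1b, Hsph1 and Hsp90aa1 move toward or past 0 when the 2 libraries are left out, while ovary Hspd1 and Hspe1 and pituitary Hspa5 do not.

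Among the 59 members with a RefSeq promoter entry (250 bases before to 50 after the start site, GRCm38.p6), the longer 3-unit heat shock element GAANNTTCNNGAA, or TTCNNGAANNTTC on the other strand, occurred in 4 (6.78%, against 0.662% of 27025 genes). The 2-unit GAANNTTC, or TTCNNGAA, which is contained in it, occurred in 16 (27.1%, against 17.0%). The 3-unit stretches are shown because they belong to Hsph1, to Dnajb6, a cytosolic HSP40 that keeps aggregates in check, and to the start region that Hspd1 and Hspe1 share. The shared stretch is counted for both genes. Counted from the RefSeq start site used, the Hsph1 element shown lies 15 to 27 bases after it, and the others lie before theirs. Every stretch also lies wholly within annotated exons, counting those of either strand. The annotated Dnajb6 gene starts at 29735688 and Hspd1, on the minus strand, at 55088243, so both stretches lie inside their genes. Each reads 5′ to 3′ on the strand of its gene, with the element, or 2 overlapping ones, in capitals.
Hsph1, chr5:149636281-149636307, minus strand: ctgcagaTTCTGGAAAGTTCtcctcag
Dnajb6, chr5:29735845-29735871, plus strand: gctccgaGAATCTTCCGGAAcgctaga
Hspd1, chr1:55088053-55088082, minus strand: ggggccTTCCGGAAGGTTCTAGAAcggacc
Hspe1, chr1:55088053-55088082, plus strand: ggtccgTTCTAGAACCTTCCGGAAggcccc

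Hspd1 and Hspe1 are transcribed away from each other and the annotated genes overlap by 112 bases (55088132 to 55088243). The stretch shown lies outside that overlap, within the annotated Hspd1 gene only. The promoter entries of both genes hold it, so their 2 lines are the same stretch read on opposite strands. Dnajb6, which also has a 3-unit element, was not among the members called in any stress comparison of either tissue. A match is a description of these letters and not a measured binding site.

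Within groups, inducible members varied together from library to library. Correlations with Hsph1 were taken on log2(CPM + 0.5) after removing each group's mean, with 100000 shuffles within groups, two-sided, and adjusted over 20 relations. In the 31 ovaries Hsp90aa1 had r = 0.865 (permutation p = 0.0002, adjusted p = 0.00057; rho = 0.727, permutation p = 0.0013, adjusted p = 0.003) and Hspa8 r = 0.814 (permutation p = 0.00028, adjusted p = 0.0007; rho = 0.707, permutation p = 0.0013, adjusted p = 0.003). Without the 2 libraries farthest from the median of Hsph1 these were 0.782 and 0.751, and without the 6M-8W stressed group 0.693 and 0.66 over 27 libraries. For ovary Hspa1a r was 0.785 (permutation p = 0.005, adjusted p = 0.0083; rho = 0.626, permutation p = 0.0084, adjusted p = 0.014), 0.683 without the 2 farthest and 0.454 without that group. Leaving that group out also lowered r for ovary Hspa1b (0.778 to 0.378), Dnaja1 (0.746 to 0.431), Hsp90ab1 (0.782 to 0.495) and Dnajb1 (0.627 to 0.569). In the 32 pituitaries Dnaja1 had r = 0.863 (permutation p = 0.00012, adjusted p = 0.0004; rho = 0.808, permutation p = 0.00023, adjusted p = 0.00077), 0.784 without the 2 farthest and 0.818 over the 28 libraries outside that group. Pituitary Hspa1a had r = 0.848 (permutation p = 7e-05, adjusted p = 0.00028; rho = 0.821, permutation p = 5e-05, adjusted p = 0.0002), then 0.769 and 0.755. For Hspa5, of the ER, no relation passed (r = 0.353 in ovary, permutation p = 0.26, adjusted p = 0.31, rho = 0.198, permutation p = 0.37, adjusted p = 0.44; r = -0.059 in pituitary, permutation p = 0.75, adjusted p = 0.75, rho = -0.075, permutation p = 0.7, adjusted p = 0.7). Nor did one for ovary Hspd1 (r = 0.174, permutation p = 0.26, adjusted p = 0.31; rho = 0.275, permutation p = 0.15, adjusted p = 0.19). Pituitary Hspd1 did pass (r = 0.574, permutation p = 0.024, adjusted p = 0.032; rho = 0.548, permutation p = 0.019, adjusted p = 0.028), with r = 0.628 without the 2 farthest libraries and 0.252 without the 6M-8W stressed group. Hspe1 passed in neither tissue (r = 0.14 in ovary and 0.296 in pituitary, permutation p = 0.31 in each).

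In the 2M-12W ovary the small heat shock transcripts Hspb1 and Hspb8 fell. Hspb1 was at 21.6, 25.4, 22.2 and 21.4 CPM in stressed ovaries and at 33.1, 55.2, 54.5 and 63.6 in controls (-1.19 ± 0.26, adjusted p = 0.00638), and it passed under 12 of 13 alternatives. Hspb8 was at 26.6, 30.8, 27.7 and 28.2 CPM against 30.4, 60.5, 37.9 and 62.2 (-0.75 ± 0.22, adjusted p = 0.0378), and its call held in 6 of 13. The groups did not overlap for Hspb1 and overlapped for Hspb8 through control 1. Beside them the luteal markers summed to 1617, 288, 308 and 298 CPM in stressed libraries 1 to 4 and to 904 to 4769 in controls, and their part in these values was not tested. Hsph1 in the same ovaries was at 92.00, 61.7, 68.9 and 112 CPM against 155, 149, 119.5 and 120.3 (-0.70 ± 0.27, adjusted p = 0.11), all 4 stressed below all 4 controls but short of the threshold.

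Hspb8 fell in both tissues as the mean of the 4 sets. The ovary fold was -0.38 ± 0.11 (adjusted p = 0.0176), with 15 of 16 stressed ovaries below their control mean, and the pituitary fold was -0.40 ± 0.10 (adjusted p = 0.0115), with 14 of 16 below. Hspb8 passed under all 37 alternatives in ovary and all 39 in pituitary. Its lowest pituitary values were in 2M-12W, 14.04, 14.9, 16.7 and 16.5 CPM in stressed libraries against 22.9, 29.7, 24.5 and 24.2 in controls, without overlap (-0.70 ± 0.20, adjusted p = 0.114). The other small heat shock genes tested did not pass in the mean of either tissue.

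Of the ER members, Dnajb9 was called in 2 ovary sets, in the ovary mean and in 1 pituitary set. It is an IRE1 and XBP1 target that also holds IRE1 in check. Over the 4 ovary sets Dnajb9 rose on average (0.29 ± 0.06, adjusted p = 0.00171, 13 of 16 above the control mean) and passed under all 37 alternatives. In 6M-8W it was at 81.96, 57.6, 85.7 and 92.2 CPM in stressed ovaries and 55.9, 54.7, 59.3 and 57.3 in controls (0.48 ± 0.12, adjusted p = 0.0484). In 2M-8W it was at 69.9, 54.1, 78.4 and 76.5 CPM against 46.8, 51.2, 55.05 and 52.4 (0.44 ± 0.12, adjusted p = 0.0348). Stressed library 2 overlapped the controls in each set and the other 3 stressed ovaries stood above them. No such difference was seen in 6M-12W (-0.01 ± 0.13, adjusted p = 0.982).

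Pituitary Dnajb9 rose in 6M-8W, with 245, 244, 298 and 383 CPM in stressed libraries and 183, 176, 161 and 168 in controls, all 4 stressed above all 4 controls (0.77 ± 0.20, adjusted p = 0.0243). Corticotrope and melanotrope markers were also higher there, summing to 13710 to 25070 CPM in stressed and 7959 to 12050 in control pituitaries. They separated the groups in the other 3 pituitary sets too, and their part in the pituitary results was not tested. Hspa5, the main ER HSP70, was at 947, 1062, 778 and 936 CPM against 516, 565, 586 and 799 and missed the threshold (0.59 ± 0.20, adjusted p = 0.0848). Its fold did not rest on libraries 3 and 4 (0.70 ± 0.24 without them, adjusted p = 0.235), and that of Dnajb9 was 0.50 ± 0.24 without them (adjusted p = 0.504). Hspa13, another ER HSP70, was at 107, 109, 126 and 149 CPM against 98.04, 97.8, 90.4 and 99.1, and Hsp90b1 at 896, 928, 984 and 1072 against 858, 842, 851 and 813. Neither group overlapped its controls and neither gene passed (adjusted p = 0.137 and 0.376).

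Dnajc3 (p58IPK, a BiP partner and inhibitor of the PERK kinase) rose in the 6M-8W ovary, at 195, 203, 247 and 293 CPM against 173, 189.9, 168 and 183, without overlap and highest in libraries 3 and 4 (0.39 ± 0.10, adjusted p = 0.0454). In the mean of the ovary sets Dnajc3 rose by 0.14 ± 0.05 (adjusted p = 0.0462, under 14 of 37 alternatives) and Hspa13 by 0.17 ± 0.05 (adjusted p = 0.0276, under 35 of 37). Ovary Hspa5 was at 454, 818, 1350.3 and 809 CPM in 6M-8W stressed libraries and 487, 795, 603 and 492 in controls (adjusted p = 0.354), with the groups overlapping. In pituitary Dnajc10 (ERdj5, an ER reductase) rose by a small amount in the mean, 0.11 ± 0.03 (adjusted p = 0.0358), above its control mean in 16 of 16 stressed libraries and past the threshold under 22 of 39 alternatives. Hspa5, Hsp90b1, Dnajb11 and Dnajc1 passed in neither mean. Of the 8 ER members, 7 had a 6M-8W fold above 0 in each tissue (median 0.19 in ovary, 0.29 in pituitary).

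The ER stress element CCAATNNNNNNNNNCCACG, or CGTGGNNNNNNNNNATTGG on the other strand, occurred in 3 of the 59 member promoters (5.08%, against 0.137% of 27025 genes), and these are shown because they are the promoters of 3 ER chaperones followed here. Each reads 5′ to 3′ on the strand of its gene, with the element in capitals, and Hsp90b1 holds it once on each strand. The Hspa5 stretch lies wholly within annotated exons.
Hspa5, chr2:34772020-34772048, plus strand: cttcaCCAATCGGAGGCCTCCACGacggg
Dnajc3, chr14:118937812-118937860, plus strand: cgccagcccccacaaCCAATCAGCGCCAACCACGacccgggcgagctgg
Hsp90b1, chr10:86705518-86705671, minus strand: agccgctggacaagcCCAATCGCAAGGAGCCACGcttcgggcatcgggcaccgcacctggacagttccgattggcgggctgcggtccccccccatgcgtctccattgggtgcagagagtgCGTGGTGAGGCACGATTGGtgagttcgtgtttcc

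Mitochondrial Hspd1 moved in opposite directions in 2 ovary sets. In 6M-8W it was at 781, 833, 796 and 755 CPM in stressed ovaries and 592, 583, 539 and 659 in controls, all 4 stressed above all 4 controls (0.42 ± 0.10, adjusted p = 0.0483). In 2M-12W it was at 614, 441, 493 and 535 CPM against 621, 746, 807 and 638, all 4 stressed below all 4 controls (-0.43 ± 0.10, adjusted p = 0.0134). The test of whether its stress effect differs among the sets passed (adjusted p = 0.0176). The 6M-8W call held in 2 of 14 alternatives, with folds of 0.38 to 0.47. The fold was as large without libraries 3 and 4 (0.45 ± 0.13, adjusted p = 0.182). Luteal markers moved the same way in these 2 sets. They summed to 1912 to 2592 CPM in the 6M-8W stressed ovaries against 681 to 1080 in controls. In 2M-12W they summed to 288 to 1617 against 904 to 4769, overlapping through stressed ovary 1. They were also lower in stressed 6M-12W ovaries, at 419 to 730 against 991 to 2933, where Hspd1 was not called. The mean FPKM of Hspd1 in those stressed ovaries, 179.7, was nonetheless the lowest of the 8 groups. The part of the luteal markers was not tested.

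Hspe1, its partner, was at 238, 255, 249.7 and 277 CPM in the 6M-8W stressed ovaries against 155, 201, 182 and 201, also without overlap but short of the threshold (0.46 ± 0.16, adjusted p = 0.142). Hspa9 (mortalin), the mitochondrial HSP70, stayed between 390 and 468 CPM in all 31 ovaries, with 424, 459, 468 and 436 against 390.4, 397, 398 and 424 in 6M-8W (adjusted p = 0.18). Dnajc15 fell in the 2M-8W ovary, from 73.01, 167, 118 and 129 CPM in controls to 73.4, 77.2, 78.4 and 91.9 in stressed libraries (-0.60 ± 0.17, adjusted p = 0.0377), with control 1 as low as the stressed. Its mean over the sets fell by 0.32 ± 0.09 (adjusted p = 0.0111, 15 of 16 below the control mean, under all 37 alternatives). Dnaja3 and Dnajc19, a J protein of the mitochondrial import motor, passed in no stress comparison.

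**Figure D5:**
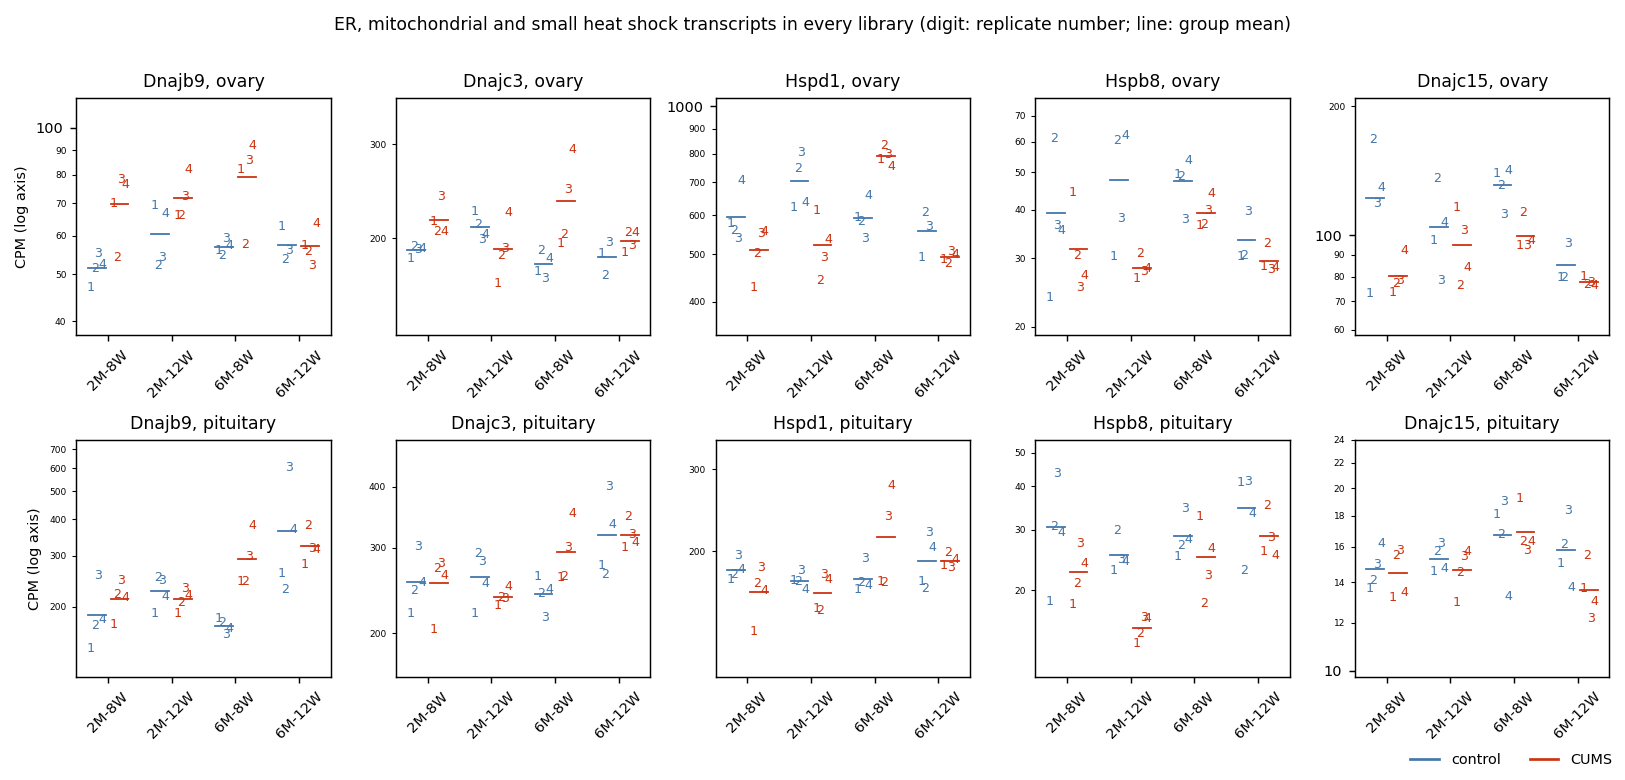
CPM (log axis) of Dnajb9, Dnajc3, Hspd1, Hspb8 and Dnajc15 in every library of ovary (upper panels) and pituitary (lower panels), by set, controls in blue and CUMS in red, with replicate numbers as digits and group means as lines. All 4 red digits of ovary Hspd1 stand above the blue in 6M-8W and below them in 2M-12W.

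Other members were called as well. In the ovary mean Dnajb5, a cytosolic HSP40, fell by 0.29 ± 0.08 (adjusted p = 0.0075), and in 2M-12W it fell by 0.51 ± 0.15 (adjusted p = 0.0342), and Dnajc18 fell by 0.11 ± 0.04 (adjusted p = 0.0273). Hspa2, an HSP70 of the germ line and other cells, rose by 0.24 ± 0.08 (adjusted p = 0.0302). Without 2M-8W stressed ovaries 1 and 3 its fold was 0.13 ± 0.05 and it no longer passed (adjusted p = 0.107). Dnajb13 rose by 0.49 ± 0.14 (adjusted p = 0.0143, 14 of 16). It belongs to motile cilia, and ciliated-cell markers summed to 23.6 to 392 CPM in ovaries, highest in 2M-8W stressed ovary 1, where Dnajb13 was at 13.6 CPM, and at 136.5 in stressed ovary 3 of that set. Their part in the rise of Dnajb13 and of Hspa2 was not tested. Dnajc7, which passes clients between HSP70 and HSP90, rose by 0.12 ± 0.04 (adjusted p = 0.017) and in 2M-12W by 0.25 ± 0.07 (adjusted p = 0.0289). Dnajc25, chosen after its values were seen, exceeded its control mean in 16 of 16 stressed ovaries (0.19 ± 0.06, adjusted p = 0.034).

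Dnajc11, a part of the mitochondrial inner membrane organizing system, rose in the mean of both tissues, by 0.10 ± 0.03 in ovary (adjusted p = 0.0165) and by 0.12 ± 0.03 in pituitary (adjusted p = 0.0206, 16 of 16 above the control mean). In the 6M-12W ovary it was at 110.0, 109, 114 and 118 CPM against 97.3, 85.6 and 97.6, without overlap (0.27 ± 0.06, adjusted p = 0.00932, under 10 of 12 alternatives). Dnajc9, a histone chaperone, also rose there, from 31.8, 32.2 and 40.4 CPM to 42.7, 42.6, 46.9 and 42.3 (0.33 ± 0.11, adjusted p = 0.0446), and Dnajc18 fell from 53.04, 55.5 and 53.2 to 44.2, 46.01, 46.7 and 46.4 (-0.23 ± 0.08, adjusted p = 0.0469). Each of the 3 separated stressed from control libraries, but the calls of Dnajc9 and Dnajc18 held in 3 and 4 of 12 alternatives. In the 6M-8W pituitary Hspa12a, an atypical HSP70, fell from 25.3, 26.3, 20.6 and 22.6 CPM to 22.00, 19.2, 17.2 and 13.8 (-0.40 ± 0.12, adjusted p = 0.0437), lowest in libraries 3 and 4.

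Whether stress acted alike in the 4 sets was tested for each member. In ovary 6 of 66 passed (4.84% of all genes): Hspd1 (adjusted p = 0.0176), Hspb1 (0.0322), Hsph1 (0.0417), Hsp90aa1 (0.0455), Hspa12a (0.046) and Dnajc11 (0.048). Ovary Hspa12a was at 44.7, 44.2, 35.6 and 32.8 CPM in 6M-8W stressed libraries against 52.7, 49.1, 52.1 and 54.3, and at 60.5, 63.5, 62.2 and 70.7 against 49.2, 38.1 and 49.6 in 6M-12W, apart in opposite directions. Without 6M-8W stressed ovaries 3 and 4 only Hspd1 passed this test. In pituitary edgeR called 0 of 64 (0.465% of all genes; 15 had an unadjusted p under 0.05; DESeq2 was not run on this test).

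The 2 durations differed in the stress effect at 6 months in the ovary for 7 members (8.74% of all genes). Dnaja4, Hsp90aa1, Dnaja1 and Hspd1 had lower folds in 12W than in 8W (differences of -1.41, -1.01, -0.69 and -0.59), and Hspa12a, Hspb6 and Dnajc17 higher ones (0.90, 0.65 and 0.36). Dnaja4, Hspb6 and Dnajc17 are named here after their values were seen. Dnaja4, a cytosolic HSP40, was at 109, 158, 121 and 83.2 CPM in 6M-8W stressed ovaries against 74.4, 59.1, 53.8 and 89.4, and at 41.3, 42.4, 38.9 and 41.8 against 52.5, 80.5 and 59.8 in 6M-12W. It overlapped its controls in the first set and lay below all of them in the second. Between the ages edgeR called 0 members in the ovary at 8W (0.00% of all genes; 12 had an unadjusted p under 0.05, DESeq2 called 1) and 0 at 12W (0.00%; 5, and 0 by DESeq2). Between durations at 2 months it called 0 as well (0.501%; 9, and 0). In pituitary it called 0 members between ages at 8W (0.182%; 16, and 1 by DESeq2) and at 12W (0.0235%; 0, and 0), and 0 between durations at 2 months (0.00%; 1, and 0) and at 6 months (0.359%; 14, and 0).

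In the pituitary some members differed with age in unstressed animals. There 10 of 64 members passed between 6-month and 2-month controls, 6 higher and 4 lower, a share of 15.62% near that of all genes (16.1%), and in ovary edgeR called 0 of 66 (0.287%; 6 had an unadjusted p under 0.05 and DESeq2 called 0). Dnajc2 (a ribosome-bound HSP40), Hspa2 and Dnajb14 had the largest rises, 0.39 ± 0.09 (adjusted p = 0.00335), 0.30 ± 0.08 (adjusted p = 0.00809) and 0.25 ± 0.06 (adjusted p = 0.0047), and Dnajc1, Dnajc13 and Dnajc10 rose by 0.22, 0.17 and 0.16. Hspb1 fell by 0.62 ± 0.21 (adjusted p = 0.0432, under 8 of 22 alternatives), Dnajb2 fell by 0.37 ± 0.10 (adjusted p = 0.00967), Hspe1 fell by 0.34 ± 0.10 (adjusted p = 0.0168) and Dnajb6 fell by 0.24 ± 0.07 (adjusted p = 0.0165).

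The low values of Hspe1 and Dnajb2 were those of the 6M-12W controls. Hspe1 was at 33.9, 35.1, 30.3 and 30.6 CPM there, at 56.5, 54.3, 65.1 and 62.04 in 6M-8W controls, at 60.2, 62.5, 68.02 and 62.04 in 2M-12W and at 42.8, 47.7, 57.4 and 48.1 in 2M-8W. Dnajb2, a neuronal HSP40, was at 59.2, 62.6, 30.5 and 50.9 CPM in 6M-12W controls and at 79.5, 85.8, 90.8 and 80.8 in 6M-8W. Hspa2 was highest in the 6M-12W controls, and its 6M-8W controls overlapped the 2M-12W ones, with 39.9, 35.9, 40.97 and 34.3 CPM in 6M-12W and 31.3, 35.6, 27.3 and 28.7 in 6M-8W, against 36.2, 23.8, 28.4 and 33.2 in 2M-12W and 27.7, 26.3, 22.9 and 23.1 in 2M-8W. Without 6M-12W control pituitaries 3 and 4, in which Dnajb9 also stood at 602.5 and 369 CPM against 230 and 259 in the other 2, the count was 1, Hspa2 (0.31 ± 0.08, adjusted p = 0.0443). The clock measure was 2.16 to 2.47 in 6M-12W controls and 0.50 to 1.04 in 6M-8W controls, and somatotrope markers summed to 32690 to 45960 CPM against 57520 to 71360. Mitochondrial genes took 4.19%, 5.86%, 10.02% and 6.19% of the counts in 6M-12W controls 1 to 4, against 2.81% to 3.18% in 6M-8W controls. The part of these measures in the age differences was not tested.

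Other genes of these pathways were taken from lists of non-members. Of 34 HSF1 pathway and cytosolic co-chaperone genes, 2 rose and 4 fell in the ovary mean (median -0.03, and 0.01 over all genes tested, of which 20.3% passed). Fkbp5, an HSP90 partner of steroid receptors that glucocorticoids raise, fell by 0.87 ± 0.15 (adjusted p = 0.000176) and Bag1, an HSP70 nucleotide exchange factor, fell by 0.24 ± 0.04 (adjusted p = 0.0003). Neither passed in the 6M-8W ovary, where 0 of the 34 did (1.12% of all genes). In the pituitary mean Fkbp5 rose by 0.61 ± 0.07 (adjusted p = 4.58e-07) and Hsbp1, which binds HSF1, fell by 0.12 ± 0.03 (adjusted p = 0.0112). In the 6M-8W pituitary, where 4.70% of all genes passed, 4 of the 34 rose and 0 fell: Fkbp5 by 1.23 ± 0.14, the HSP70 to HSP90 adaptor Stip1 by 0.65 ± 0.16, St13 by 0.52 ± 0.10 and the HSP90 activator Ahsa1 by 0.50 ± 0.12. Hsp90ab1 itself was at 1518.5 ± 358 CPM (SD, n = 4) in those stressed pituitaries and 1217 ± 55.7 in their controls.

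Of 24 ER stress genes, 3 rose in the pituitary mean and 0 fell (median 0.08, against 6.44% of all genes passing). They were Herpud1, which works in ER-associated degradation (0.37 ± 0.04, adjusted p = 1.45e-06), the pseudokinase Trib3 (0.65 ± 0.15, adjusted p = 0.00506) and Edem1 (0.24 ± 0.07, adjusted p = 0.0384). In the ovary mean 3 rose and 1 fell (median -0.05, with 20.3% of all genes passing). The one that fell was the calcium-binding chaperone Calr (-0.16 ± 0.05, adjusted p = 0.0148). In the 2M-12W ovary Calr, Pdia3, Pdia6, Edem1 and Sdf2l1 fell, 5 of the 24, and 0 rose (6.74% of all genes passed). Of 13 genes of mitochondrial protein folding, 1 fell in the ovary mean, the stress factor Atf5 (-0.41 ± 0.10, adjusted p = 0.00496). Beyond protein folding, 17 of 20 immediate early genes fell in the ovary mean (median -0.65, with 20.3% of all genes passing). In the 6M-8W ovary 0 of the 20 passed (median -0.24, 1.12% of all genes). Of 18 clock genes, 8 rose and 3 fell in the ovary mean. In the pituitary mean 10 rose and 3 fell (6.44% of all genes passed).

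Calls in single sets depended on single libraries. In the 6M-8W ovary edgeR called 0 members without control 1, 2 or 4 or without stressed 3 or 4, and 1 without control 3. In the 2M-8W ovary the count was 0 without control 2 or 4 or without stressed 1 or 3, and 4 without stressed 2. In 2M-12W it was 1 without control 2 or stressed 2 or 3, and 2 without control 4. In 6M-12W it was 0 without control 2 or stressed 4, and 1 without control 1 or stressed 1, 2 or 3. In the 6M-8W pituitary it was 0 without stressed 3 or 4, 11 without stressed 1, 8 without stressed 2, and 2 without control 1, 3 or 4. The 15 of the ovary mean ranged from 12 to 17 over the 31 libraries left out in turn.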

How the data were processed

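The authors deposited 1 table per tissue that pairs raw read counts with FPKM for each gene and library, per the file headers, with positions on GRCm38. Which aligner and counter were used, and whether by strand, is not given in the sources used here. Deposited FPKM equalled count over library total over 1 length per gene, within 1%, for 100.0% of the values above 0. Counts were fitted per tissue with edgeR 4.0.16 (R 4.3.3, limma 3.58.1), using the quasi-likelihood F test, TMM scaling, the filterByExpr filter and 1 mean for each of 8 groups, and Benjamini-Hochberg adjustment over 17766 genes in ovary and 17001 in pituitary. CPM are counts scaled by the TMM library size. The script recovered set changes when tested on simulated data.

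Replicates are libraries that the labels number within a group. Nothing in the labels says that they came from separate animals, so p-values measure the spread between these samples, which may be technical. No 2 libraries of a group held the same counts. Genes named are the heat-inducible cytosolic, ER and mitochondrial members, the extreme folds among those that passed, the smallest p in the test of differing effects and the 2 highest FPKM of each family. Exceptions are stated. The members, lists and libraries left out together were chosen with earlier results of these data known. Alternatives were DESeq2 1.42.0 (Wald test), size factors in place of TMM, no filter, a replicate block, each comparison's own groups and each library left out in turn.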

Additional observations from a re-analysis of the deposited data

Results flagged for a closer look

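Among 195 groups of 4 libraries, 24 held 1 library far from the other 3 (a gap above Dixon's 95% critical value). Chance flags about 1 in 20 groups, and the genes are not independent. In 2M-8W control pituitary 1 this held for Hspa1a (24.6 CPM), Hspa1b (19.0 CPM) and Hsph1 (398.0 CPM), and Dnaja1 (186.5 CPM), all high. In 6M-8W control pituitary 2 Hspa1a (28.2 CPM), Hspa1b (28.0 CPM) and Dnajb1 (93.7 CPM) were high, and Dnajb4 stood apart at 58.8 CPM. In 2M-12W control pituitary 1 Hspa1a (11.7 CPM), Hsp90aa1 (268 CPM) and Dnajb1 (81.3 CPM) were high.

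Other pituitary values that stood apart were Hspa1a in 2M-12W stressed library 2 (4.70 CPM), Hspb1 in 2M-8W stressed library 3 (22.7 CPM), and Hspa4l in 2M-8W stressed library 2 (179.7 CPM), 6M-12W control 1 (136.8 CPM) and 6M-12W stressed library 4 (196.9 CPM). In ovary, 6M-12W stressed library 4 stood apart for Hspa1b (49.8 CPM) and Dnajb1 (81.9 CPM), and stressed library 2 of that set for Hspb8 (32.7 CPM) and Dnajb4 (38.1 CPM). Hsp90aa1 did in 2M-8W stressed ovary 3 (418.0 CPM), Hspa8 in 6M-8W control ovary 3 (1027 CPM), and Dnajb4 in 2M-12W control ovary 3 (70.0 CPM) and 6M-8W control ovary 2 (29.2 CPM).

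Stress effects differed among the 4 ovary sets, by edgeR's test of the difference, for Hspd1 (adjusted p = 0.0176), Hspb1 (adjusted p = 0.0322), Hsph1 (adjusted p = 0.0417), Hsp90aa1 (adjusted p = 0.0455), Hspa12a (adjusted p = 0.046) and Dnajc11 (adjusted p = 0.048). Between 12 and 8 weeks at 6 months they differed in ovary for Hspa12a (adjusted p = 0.0177), Hspd1 (adjusted p = 0.0205), Dnajc17 (adjusted p = 0.0336), Dnaja1 (adjusted p = 0.0379), Hspb6 (adjusted p = 0.0403), Dnaja4 (adjusted p = 0.0427) and Hsp90aa1 (adjusted p = 0.0436).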

How the results depend on the processing

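Counts of members called in single sets moved with the settings, and the cause was not tested. In ovary the 2 of 2M-8W became 1 with the replicate block and 0 with only that set's groups or without stressed ovaries 1 and 3, and ranged from 0 to 4 over libraries left out in turn. The 5 of 2M-12W became 3 without the filter and 0 with its own groups (1 to 7 over libraries left out). The 6 of 6M-8W became 0 without the filter, 3 with the replicate block, 0 with its own groups and 0 without stressed ovaries 3 and 4 (0 to 9). The 3 of 6M-12W became 1 without the filter, 7 with DESeq2 and 9 with its own groups (0 to 2). The 6 with differing effects became 2 without the filter, 3 with the replicate block, 2 without 2M-8W stressed ovaries 1 and 3 and 1 without 6M-8W stressed ovaries 3 and 4 (1 to 9). In pituitary the 0 of 2M-12W became 1 with DESeq2 and 1 with its own groups. The 4 of 6M-8W became 2 with their own groups, 0 without stressed pituitaries 3 and 4 and 8 without the 2 high control pituitaries (0 to 11). The 3 of the pituitary mean became 1 without the filter (2 to 5), the 0 with differing effects ranged from 0 to 2, and the 10 by age became 1 without 6M-12W controls 3 and 4 (6 to 13). Without stressed libraries 3 and 4 the 6M-8W fold changed sign for ovary Hspb1 (-0.071) and for pituitary Hspa1a (-0.50), Hspa1b (-0.48) and Hsp90aa1 (-0.067). In all, 226 of the recomputed counts stayed within 1.5 times and 74 did not. Same-numbered control and stressed libraries deviated together with correlations of -0.30 to 0.209 in ovary and -0.092 to 0.314 in pituitary, so the numbers were not taken as pairs.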
